A study of Mus musculus with 9 samples.

Results

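The regions described are 223 differentially methylated regions (DMRs) of the neonatal mouse hypothalamus in which the MMS group mean lay at or close to the lowest value of that group while the control mean was higher. They were chosen by the group means themselves: the MMS mean had to lie no more than 0.5 above its lowest value of -0.24 (0.26 or less, log2 normalised reads), with the control mean above it. They made up 1.72% of the 12949 listed DMRs and 4.6% of the 4844 DMRs with the higher mean in control. The opposite pattern, a control mean within 0.5 of its own lowest value of -0.17 and a higher MMS mean, held in 4274 DMRs, or 52.7% of the 8105 DMRs higher in MMS. Because these values chose the regions, the size of the gap between the groups is given as a description without a test.

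Modified maternal separation (MMS) is a model of early life stress in which C57/Bl6 pups were separated from the dam and handled daily between postnatal days 4 and 6, each time for 1.5 h. The controls were unseparated littermates, and the hypothalamus of males was collected on day 6, right after the last separation. DNA from 10 animals per group was combined at random into 3 pools, giving 3 control and 3 MMS libraries of methylated DNA immunoprecipitation sequencing (meDIP), with 1 input library per group and 1 IgG library. Pools hide the spread between single animals, and in whole tissue a difference in methylation and a difference in the make-up of cell types cannot be told apart. The values used are 1 mean per group with no value per library, so no error or overlap of replicates can be given, and no test between the groups was run on them.

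In most mammalian tissues DNA methylation sits mainly on cytosines followed by guanine (CpG), and most CpG outside CpG islands are methylated. Repeated elements, many of them remnants of retrotransposons, are a large reservoir of methylated CpG. meDIP captures DNA fragments with an antibody against 5-methylcytosine, so the reads over a region depend both on how methylated it is and on how many CpG it holds. A region with very few CpG gives the antibody few CpG targets even when every CpG is methylated. Methylation of other cytosines was not examined here.

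The sequences of 11 of the regions are shown first, because they span the range of CpG content in the set and belong to regions with high control means, to those in promoters and coding exons, and to those with the most and the fewest CpG. They are from the plus strand of GRCm38.p6 (RefSeq), with every CG in capitals. Where a region is wider than 300 bp, the 300 bases with the most CpG are printed.
Intergenic, chr13:3372447-3372746: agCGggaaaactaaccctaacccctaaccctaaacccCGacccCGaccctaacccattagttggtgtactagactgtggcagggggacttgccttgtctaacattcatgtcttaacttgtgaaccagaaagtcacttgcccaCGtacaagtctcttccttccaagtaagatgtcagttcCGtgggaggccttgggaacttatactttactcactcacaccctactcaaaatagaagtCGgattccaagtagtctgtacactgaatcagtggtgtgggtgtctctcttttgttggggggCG
Ncald intron, chr15:37523472-37523698: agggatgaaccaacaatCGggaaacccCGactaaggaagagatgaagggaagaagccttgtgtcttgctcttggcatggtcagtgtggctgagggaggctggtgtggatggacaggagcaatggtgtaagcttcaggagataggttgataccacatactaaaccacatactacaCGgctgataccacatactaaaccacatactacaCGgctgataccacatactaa
Fgf12 intron, chr16:28722468-28722660: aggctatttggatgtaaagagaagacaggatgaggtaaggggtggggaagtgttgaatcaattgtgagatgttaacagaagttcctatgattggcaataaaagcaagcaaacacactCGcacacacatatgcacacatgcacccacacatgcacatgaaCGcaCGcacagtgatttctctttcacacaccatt
Intergenic without CpG, chr6:37730519-37730691: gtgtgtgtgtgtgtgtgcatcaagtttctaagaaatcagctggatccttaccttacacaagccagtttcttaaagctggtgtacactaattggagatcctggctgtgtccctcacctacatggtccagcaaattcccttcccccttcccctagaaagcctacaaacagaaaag
Vps8 intron without CpG, chr16:21540290-21540438: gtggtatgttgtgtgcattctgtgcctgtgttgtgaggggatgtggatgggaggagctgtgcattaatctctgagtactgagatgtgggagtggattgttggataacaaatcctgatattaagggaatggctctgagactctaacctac
Wdr72 promoter window, chr9:74273213-74273375: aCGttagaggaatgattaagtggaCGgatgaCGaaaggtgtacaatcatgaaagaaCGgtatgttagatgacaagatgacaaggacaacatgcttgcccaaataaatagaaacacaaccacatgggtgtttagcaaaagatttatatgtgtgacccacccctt
Greb1 coding exon, chr12:16684422-16684603: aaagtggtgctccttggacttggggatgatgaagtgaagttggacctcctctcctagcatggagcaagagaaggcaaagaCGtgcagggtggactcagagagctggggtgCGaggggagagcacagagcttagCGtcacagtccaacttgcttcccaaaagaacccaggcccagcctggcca
Fry promoter window, chr5:150257140-150257307: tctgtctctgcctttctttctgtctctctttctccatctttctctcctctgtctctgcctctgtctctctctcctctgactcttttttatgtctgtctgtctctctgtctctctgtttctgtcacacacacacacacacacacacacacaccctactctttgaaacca
Fry coding exon, chr5:150405260-150405411: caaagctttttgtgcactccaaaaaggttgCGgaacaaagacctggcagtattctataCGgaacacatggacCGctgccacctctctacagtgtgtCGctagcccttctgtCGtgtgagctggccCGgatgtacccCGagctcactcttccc
Pkhd1 intron, chr1:20574478-20574777: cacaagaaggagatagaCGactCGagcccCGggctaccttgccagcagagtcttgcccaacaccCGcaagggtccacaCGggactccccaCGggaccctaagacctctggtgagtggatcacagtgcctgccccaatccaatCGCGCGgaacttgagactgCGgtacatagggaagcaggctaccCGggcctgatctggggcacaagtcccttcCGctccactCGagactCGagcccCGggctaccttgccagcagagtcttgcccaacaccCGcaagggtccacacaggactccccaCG
Bzw2 intron, chr12:36105197-36105496: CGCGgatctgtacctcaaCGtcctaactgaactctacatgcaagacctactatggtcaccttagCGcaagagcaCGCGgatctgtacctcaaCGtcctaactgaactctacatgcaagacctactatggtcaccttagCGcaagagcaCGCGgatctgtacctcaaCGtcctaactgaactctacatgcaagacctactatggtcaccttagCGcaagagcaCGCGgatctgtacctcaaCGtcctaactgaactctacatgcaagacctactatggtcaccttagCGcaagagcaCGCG
The capitals are sparse in most of these sequences. The Pkhd1 and Bzw2 windows hold 17 and 18 CpG, and the Vps8, chromosome 6 and Fry promoter regions hold none.

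In 185 of the 223 regions the MMS mean was exactly the lowest value of the group, -0.24 on the log2 scale or 0.847 normalised reads. The other 38 stood on 3 further levels, 10 regions at 0.12, 21 at 0.20 and 7 at 0.21, which is 0.240 to 0.310 normalised reads above the lowest. The MMS values of the set are therefore 4 discrete levels, and a difference against them depends on where the lowest value was set. The control means ran from 2.97 to 7.95 with a median of 4.56 (quartiles 3.95 and 4.87), or 7.83 to 247 normalised reads with a median of 23.6. The median control mean was 4.57 at the lowest MMS level and 4.53, 4.32 and 4.15 at the 3 levels above it. In the other 4621 DMRs higher in control the median control mean was 5.16.

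**Figure D1:**
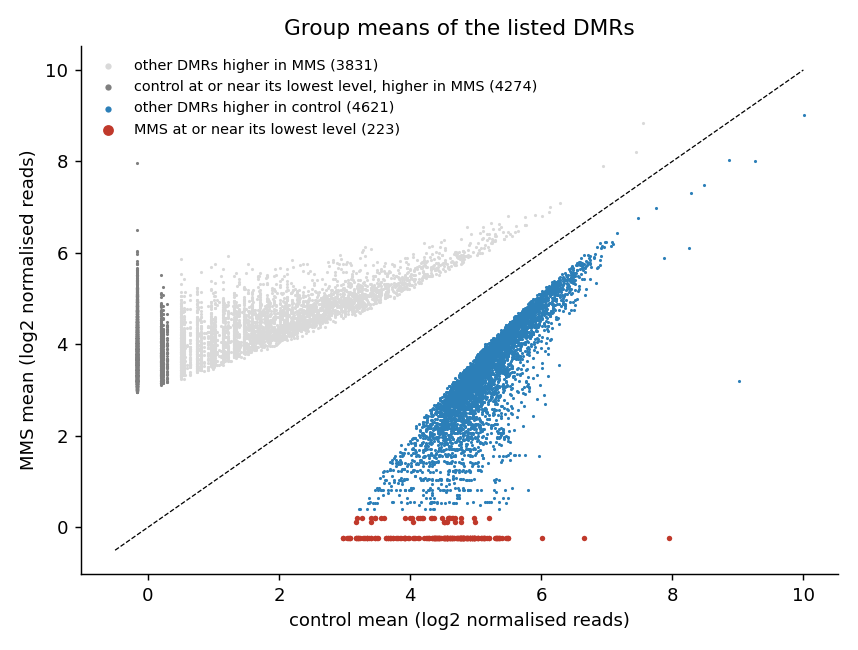
Control mean (x axis) and MMS mean (y axis) of all 12949 listed DMRs, both as log2 normalised reads, with 1 point per DMR, the 223 regions in red and the line of equal means dashed. The red points form horizontal rows at the bottom, 185 of them at -0.24, with control means between 2.97 and 7.95.

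Just inside the limit were the 7 members at 0.21 in MMS, with control means of 3.56 to 4.97. Of these 7, the highest in control were the intergenic regions chr1:112089079-112089263, chr2:10971454-10971974 and chr16:83584924-83585094, at 4.97, 4.68 and 4.59. The next level of MMS among DMRs higher in control was 0.41, held by 10 DMRs. Just outside the limit on that level were chr14:87296279-87296875 at 5.35 in control, a Palm2 intron region on chromosome 4 at 4.37 and chr13:70103725-70104246 at 4.35. The limit thus falls between neighbouring MMS levels, and control means on both sides of it overlapped.

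Some regions with high control means are described first. The intergenic region chr13:3372335-3374324 stood at 6.65 in control, or 100.4 normalised reads, over 1990 bp with 20 CpG. Its sequence holds 4 units of TTAGGG, the telomere repeat, counted on both strands, as the start of its printed window shows. At least 3 such units were found in 3 of the 223 regions (1.35%), the other two in Map3k1 and Pkhd1 introns, and in 0.988% of all listed DMRs. The intergenic region chr15:74429813-74430626 stood at 6.02 over 814 bp with 11 CpG, 85976 bp from the start of Adgrb1, an adhesion G protein-coupled receptor. Both had an MMS mean of -0.24.

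The next value, 5.50, belonged to chr13:96370055-96370914, and another member, chr13:96354070-96354616 at 5.33, lay 15438 bp away from it. Both are intergenic near Poc5, a centriole gene, and they were the only pair of members less than 20 kb apart. The MMS mean was -0.24 in both.

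Ncald, which encodes a neuronal calcium sensor, held an intron region of 227 bp at 5.49 in control, and Fgf12, an intracellular fibroblast growth factor homologue that binds voltage-gated sodium channels, an intron region of 193 bp at 5.48. These are the sequences printed above with 4 and 3 CpG. The remaining values were 5.47 at chr8:24316372-24316656, 5.40 at the region without CpG on chromosome 6, 5.37 at the end of Emc8, a subunit of the endoplasmic reticulum membrane protein complex, and 5.36 in a Fam214b intron, tied with chr17:48724459-48724645. Of these 6 single-copy regions and the tied one, none was wider than 285 bp, and the MMS mean was -0.24 in all.

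The regions were narrow. Their median width was 264 bp (quartiles 178 and 650 bp, range 141 to 2514 bp), against 606 bp in the other DMRs higher in control, 446 bp in the DMRs with control at or near its lowest level and 544 bp over all listed DMRs. Of the 223 regions, 91 (40.8%) were under 200 bp wide, compared with 15.3% of the other DMRs higher in control and 13.1% of those with control at or near its lowest level. The curve of widths rose steeply below 200 bp, flattened up to 600 bp, where it stood at 70.0%, and then rose again.

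**Figure D2:**
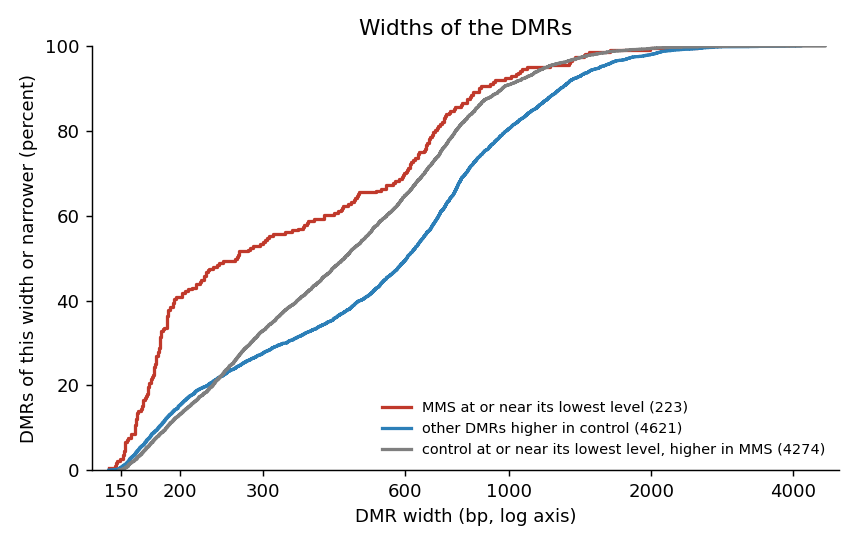
Cumulative share of DMRs (y axis, percent) by width in bp (x axis, log scale) for the 223 regions in red, the other 4621 DMRs higher in control in blue and the 4274 DMRs with control at or near its lowest level in grey. The red curve reaches 40.8% at 200 bp, where the blue and grey curves are at 15.3% and 13.1%.

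Read the other way, the share of DMRs higher in control that had MMS at or near its lowest level was 11.4% under 200 bp (91 of 797), 4.72% from 200 to 300 bp, 3.52% from 300 to 600 bp, 3.36% from 600 to 1000 bp and 1.86% (17 of 915) from 1000 bp up. The share also followed the control mean, one of the values that chose the regions. Only regions that the authors called different are listed. A DMR with a low control mean can thus be listed as higher in control only if its MMS mean is lower still. This trend is therefore partly set by the listing. The share was 75.0% (33 of 44) below a control mean of 3.5 and 6.38% from 4.5 to 5. Within that last interval it was 10.4% (62 of 596) for DMRs under 300 bp and 3.44% (28 of 814) for wider ones. From 5 to 5.5 the values were 5.08% and 0.806%, so narrow DMRs had the higher share at like control means too. Widths come from the authors' peak calls on these same libraries, however. They may therefore depend on the MMS signal that chose the regions, which matching on the control mean does not remove. No test over libraries was run for these shares.

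By width and by copy number in the reference the set fell into 3 kinds, a division made after the values were seen. Each region was aligned to the genome, and alignments of at least 100 bp with 95% identity were counted, the region itself included. There were 112 regions under 300 bp with a single alignment, 63 of 300 bp or wider with a single alignment, and 48 with more than 1 alignment. Below, single-copy means 1 alignment and repeated means more than 1 alignment at these limits. The 100 bp minimum is a larger part of a narrow region than of a wide one, so narrow repeats can count as single-copy. Of the 112, 3 (2.68%) were at least 90% soft-masked as repeats.

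The 112 narrow single-copy regions had a median width of 178 bp and a median control mean of 4.74 (range 3.21 to 5.49). Spread over so few bases this came to 14.4 normalised reads per 100 bp, against 3.73 in the 63 wide single-copy regions and 2.00 in the 48 repeated ones. They held a median of 2 CpG, 92 of the 112 (82.1%) had at most 3, and 17 (15.2%) had none. Per 100 bp their median was 1.12 CpG, against 1.00 in the wide single-copy regions and 1.62 in the repeated ones. In the other DMRs higher in control of the same width class, the median was 16.2 normalised reads per 100 bp and 3 CpG.

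The 63 wide single-copy regions had a median width of 662 bp, 7 CpG and a control mean of 4.53. The 48 repeated regions had a median width of 640 bp, 9 CpG and a control mean of 3.54, with 67.4% of their bases soft-masked as repeats. Of the 33 members with a control mean under 3.5, 23 had more than 1 alignment, and of the 123 with a control mean of 4.5 or more, 8 had. Low control means and more than 1 alignment at these limits therefore went together within the set, although the control means of the 48 reached up to 7.95.

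**Figure D3:**
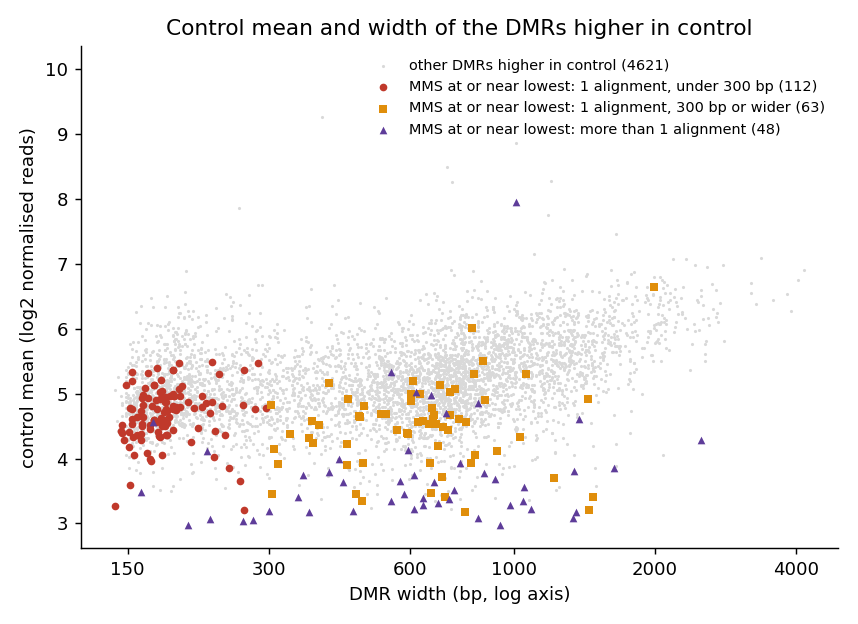
Width in bp (x axis, log scale) and control mean (y axis, log2 normalised reads) of the DMRs higher in control, with 1 point per DMR. The 112 narrow single-copy regions (red circles) lie at control means of 3.21 to 5.49, the 63 wide single-copy regions (orange squares) at 3.17 to 6.65 and the 48 repeated regions (purple triangles) mostly below them, with 1 at 7.95.

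CpG content was described in 2 width classes, since wider regions hold more CpG. Within the narrow class the members were still narrower, with 76.5% under 200 bp against 55.5% of the other DMRs higher in control. Under 300 bp the median was 1.14 CpG per 100 bp in the 119 members of that width and 1.42 in the other 1271 DMRs higher in control, with 1.27 in the 1404 DMRs with control at or near its lowest level. From 300 bp up it was 1.16 in 104 members and 1.45 in 3350 others, but over the central 300 bp of each region the median was 1.33 in both, with the same quartiles of 0.667 and 2.00. Under 300 bp that central window takes in flanking sequence, and its median was 1.00 in members and 1.33 in the other DMRs higher in control. Over the regions themselves the quartiles overlapped widely in both classes, 0.563 to 1.78 against 0.826 to 2.22 in the narrow one. These medians lay above the 0.826 CpG per 100 bp of the genome as a whole.

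**Figure D4:**
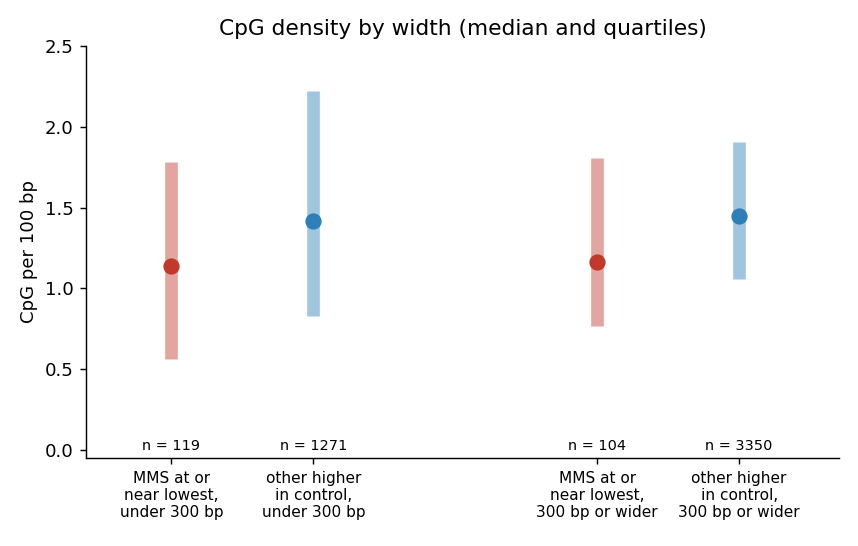
CpG per 100 bp (y axis) of the regions with MMS at or near its lowest level (red) and of the other DMRs higher in control (blue), under 300 bp on the left and from 300 bp up on the right, with points for medians and bars for quartiles. The red medians, 1.14 and 1.16, lie below the blue ones, 1.42 and 1.45, and the bars overlap.

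Regions without any CpG numbered 21 of 223 (9.42%), compared with 1.54% of the other DMRs higher in control and 3.77% of those with control at or near its lowest level. Under 300 bp, where widths were not fully matched, the shares were 16.0% of members, 5.43% of the other DMRs higher in control and 8.40% of those with control at or near its lowest level. The 3 with the highest control means, by the rule that named them, were the chromosome 6 region at 5.40, a Laptm4a intron region of 177 bp at 5.21 and the Vps8 intron region at 5.13, tied with chr7:142012632-142012802. Laptm4a encodes a lysosomal membrane protein and Vps8 a subunit of an endosomal tethering complex. The control group thus averaged 35.0 to 42.2 normalised reads over 149 to 177 bp that hold no CpG in the reference, and the MMS mean was -0.24 in each. Captured fragments can reach beyond such narrow regions, and CpG in the flanking bases are not part of these counts.

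Across the 223 regions the control mean was inversely related to the number of CpG (Spearman's rho -0.25, Pearson's r -0.24), whereas in the other 4621 DMRs higher in control the relation was positive (rho 0.39, r 0.41). Within the 112 narrow single-copy regions rho was 0.03, within the 63 wide ones 0.17 and within the 48 repeated ones 0.02. The negative value over the whole set was not present within any of the 3 kinds. These are correlations over regions that share the same libraries, given as a description.

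The 5 members with the most CpG per 100 bp stand at the other end. The Pkhd1 intron region, chr1:20574460-20575073, had 5.21 CpG per 100 bp, or 32 in 614 bp, and a control mean of 3.23. It was 94.6% soft-masked and had 5142 alignments, and a shift of 208 bp along its own sequence matched 89.4% of bases. Pkhd1 encodes fibrocystin, a protein of primary cilia in kidney and liver. The control value at such a region may come from any of these places, and how reads with several matches were placed is not given in the sources used here.

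The Bzw2 intron region, chr12:36104918-36107431, was the widest member at 2514 bp and held 101 CpG, or 4.02 per 100 bp, with a control mean of 4.28. It is an array of a 74 bp unit that matched itself at 86.0% of bases 1 unit on, and the printed window shows the unit in succession. Of its 51 alignments none lay outside the region, it was 3.26% soft-masked, and its observed over expected CpG ratio of 0.735 was the highest of the set. The array gave 19.4 normalised reads in control, or 0.773 per 100 bp, and 0.847 in MMS. It is a local repeat of 1 place in the genome, unlike the Pkhd1 region.

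The other CpG-dense members were the Fry coding exon at 4.61 CpG per 100 bp, chr8:46701976-46702136 in a noncoding gene near Irf2 at 3.73, and chr12:45429175-45429399 at 3.56. The last had a control mean of 3.07, 90.7% soft-masked bases and 75 alignments. The next widest members were the chromosome 13 region of 1990 bp described above and the 1639 bp in an untranslated exon of Adarb2, a brain member of the RNA-editing deaminase family, with 52 CpG, 821 alignments and a control mean of 3.86. A GC content of at least 50% with an observed over expected CpG ratio of at least 0.6 was met by 1 member (0.448%), the Fry coding exon of 152 bp, and by 0.602% of all DMRs.

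Of the 48 regions with more than 1 alignment, 44 aligned outside themselves, 22 had more than 100 alignments and 13 more than 1000. More than 1 alignment was found in 21.5% of members, 13.3% of the other DMRs higher in control and 16.5% of those with control at or near its lowest level. The share of members depended on the limits, and was 13.0% at 98% identity and 8.07% when 80% of the DMR had to align, at which the other sets were not counted. At 300 bp or wider the share was 39.4% of members and 16.8% of the other DMRs higher in control, and under 300 bp it was 5.88% and 4.01%. Of the 48, 9 aligned to another member. Among these were chr1:81564112-81564974, chr10:78816363-78817273 and chr8:59131678-59132722, of 863 to 1045 bp with 29 or 30 CpG each and 1050 to 1136 alignments, at control means of 3.78, 3.69 and 3.34. These members share sequence, and how reads were placed among the copies was not tested.

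Including the Pkhd1 and Bzw2 regions, 7 members were built of tandem units. The shortest unit was 22 bp, in a Map3k1 intron, and the others were 24 bp in a Dyrk1a intron, 26 bp in a Fbxl17 intron, 28 bp at chr2:117074657-117074903 and 91 bp at chr16:11966839-11967103. The Fbxl17 and chromosome 2 arrays had no CpG and no soft-masked base. The control means of the 7 ran from 3.04 to 4.28, all below the median of the set.

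By the centre of each region, 110 of the 223 (49.3%) were intergenic, 92 (41.3%) lay in introns, 9 (4.04%) at transcription ends, 5 (2.24%) in exons, 4 (1.79%) in promoters and 3 (1.35%) in UTRs, taken from GENCODE transcripts of any gene type. Over all listed DMRs the shares were 41.1% intergenic, 45.7% intron and 4.10% promoter. A protein-coding gene body held 42.2% of members and 49.1% of all DMRs. The narrow and wide members differed here: 51.3% of those under 300 bp lay in protein-coding genes and 31.7% of the wider ones, against 47.5% and 51.3% of the other DMRs higher in control.

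The median distance to the nearest protein-coding start was 35522 bp, against 22078 bp in the other DMRs higher in control, 29058 bp in those with control at or near its lowest level and 24394 bp over all. Under 300 bp it was 37593 bp in members, 24447 bp in the other DMRs higher in control and 34343 bp in those with control at or near its lowest level. None of the 223 overlapped the window of 250 bases before to 50 after a start in the RefSeq promoter table, which 97 of all listed DMRs (0.749%) did. Promoter windows here are 1000 bp upstream to 100 bp downstream of any annotated start, and 3 of the 4 promoter members belong to protein-coding genes. They were Wdr72, a WD-repeat gene of tooth enamel formation, at 5.09 in control, Gipc2, a PDZ-domain adaptor, at 4.33, and Fry at 3.97. The windows belong to starts inside the genes and not to their first start. Of these 3, Gipc2 and Fry held no CpG and Wdr72 held 4.

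Exons of protein-coding genes held members at their centre as follows. In coding sequence were Ptprb, the endothelial receptor tyrosine phosphatase, at 4.85, Greb1, an oestrogen-responsive gene, at 4.37 and Fry at 3.60. The Ptprb region is 839 bp wide and part of it, at most 182 bp, had 1263 alignments elsewhere. In exons with no coding sequence at the centre were Emc8 at 5.37, Ssbp3, a cofactor of LIM-homeodomain transcription factors, at 4.79, Adarb2 at 3.86 and Sprr2e, a cornified envelope gene, at 3.41. MMS means were -0.24 in all of these but the Fry exon, at 0.20.

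In all, 94 protein-coding genes held a member. Their median length was 118.1 kb, against 68.7 kb for genes with any DMR and 17.4 kb over the annotation. Of the 94, 39 held no other DMR and 38 also held a DMR higher in MMS, so 38 hosts carried DMRs of both directions. The median length was 321.9 kb for these 38 and 59.1 kb for the 39. The share with both directions among other genes of like length was not counted, so the 38 cannot be read as a trait of the hosts.

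Fry and Wwox held more than 1 member each. Fry, which encodes a large protein that binds microtubules, held 4 of the 6 DMRs listed in it: an intron region 9.7 kb from its start at 4.73 in control and -0.24 in MMS, the promoter region at 138.5 kb at 3.97 and -0.24, the coding exon at 286.6 kb at 3.60 and 0.20, and an intron region at 309.0 kb at 4.05 and 0.12. All 4 were 152 to 168 bp wide with a single alignment, and they held 1, 0, 7 and 4 CpG. Of the other 2 DMRs, 1 at 80.3 kb had the opposite direction, -0.17 in control and 3.41 in MMS, and 1 at 320.6 kb was 4.57 in control and 2.59 in MMS. Fry spans 379.1 kb.

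Wwox, an oxidoreductase gene that spans 913.1 kb over a common fragile site, held 2 members among 13 DMRs. The one at 446.2 kb had no CpG, a control mean of 4.83 and an MMS mean of -0.24, and the one at 680.4 kb had 5 CpG and stood at 4.96 and -0.24. Of the other 11 DMRs 6 were higher in control, with MMS means of 2.34 to 4.56, and 5 were higher in MMS, with control at -0.17 in 3 of them. Both genes thus held DMRs of both directions.

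**Figure D5:**
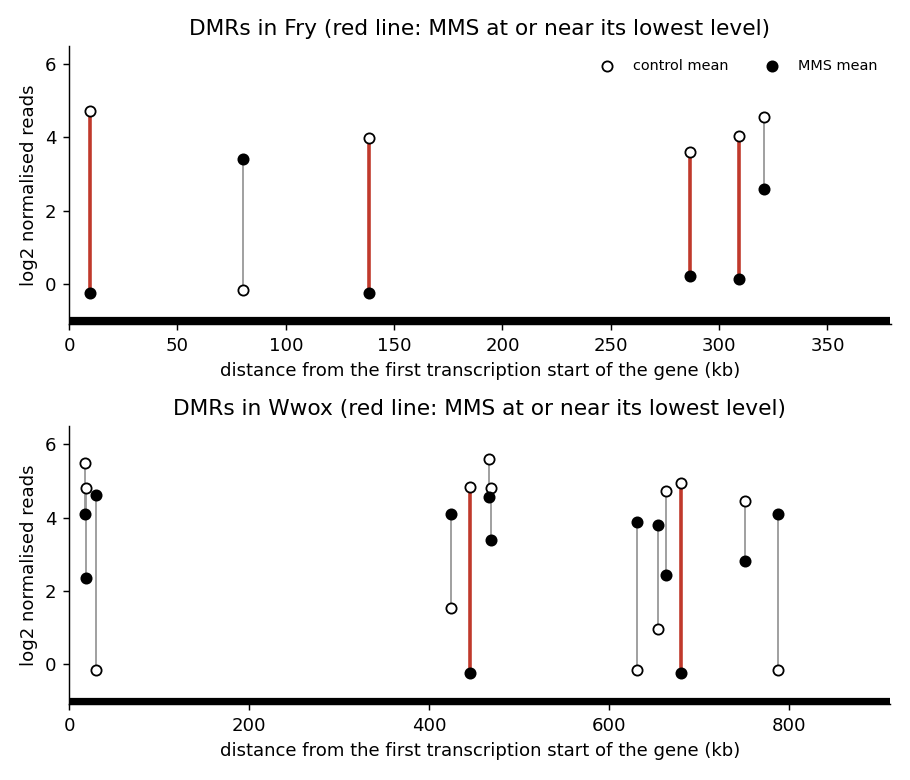
Control mean (open circles) and MMS mean (filled circles) as log2 normalised reads (y axis) of every DMR in Fry (top) and Wwox (bottom), against the distance from the first start of the gene in kb (x axis). Red lines mark the 4 members in Fry and the 2 in Wwox, in which MMS lies between -0.24 and 0.20, and grey lines mark the other DMRs.

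Lists of genes of the nervous system and of stress signalling were then searched for hosts. Of 19 lists 6 held a member and 13 did not. Over the 1514 genes in any list 9 held a member (0.594%), and over 21924 protein-coding gene symbols 94 did (0.429%). These shares differ by few genes, and gene length was not matched.

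Among 96 potassium channel genes the host was Kcnma1, the calcium-activated BK channel, with an intron region of 187 bp without CpG at 4.81 in control. Among 100 cadherin and protocadherin genes it was Cdh13, the cadherin with a lipid anchor, at 4.79, likewise without CpG. Syn3, a synapsin on synaptic vesicles, was the host among 107 presynaptic release genes with a region of 870 bp and 9 CpG at 4.91, 2697 bp from the nearest start. Slit3, a secreted axon guidance cue, was the host among 71 axon guidance genes at 4.50. Each of these 4 genes also held DMRs of the opposite direction, 3 in Kcnma1, 5 in Cdh13, 5 in Syn3 and 1 in Slit3.

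Among 108 genes of FGF, Wnt, BMP and Notch signalling the hosts were Fgf12 at 5.48 and Fgf7, a secreted growth factor that shares its region with the overlapping Fam227b, at 4.12. Among 153 kinase and second messenger genes they were Pde3a, a cyclic nucleotide phosphodiesterase, at 3.93, Map3k1 at 3.46 and Map4k3 at 3.19, both kinases of mitogen-activated cascades. The MMS means were 0.20 in Pde3a and Map4k3 and -0.24 in the others. The Map4k3 region had 8 alignments.

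No member lay in the genes listed for calcium and sodium channels (66), glutamate receptors (26), GABA, glycine, monoamine and acetylcholine receptors (80), hypothalamic neuropeptides and their receptors (70), nuclear receptors (49), DNA methylation and histone modification (98), or glucocorticoid response, immediate early and clock genes (47). The last list had a DMR higher in control in 2 of its genes and the neuropeptide list in 8. Outside the naming rule, and chosen after their values were seen, a Cyp19a1 intron region of 227 bp with 1 CpG stood at 4.88 in control, and chr17:28398305-28399022, 19841 bp from the nearest start of Fkbp5, stood at 4.71 with 5 alignments. Cyp19a1 encodes aromatase, and Fkbp5 a co-chaperone of the glucocorticoid receptor. The MMS mean was -0.24 in both.

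Neighbouring DMRs showed no common direction. The nearest other DMR lay at a median of 53796 bp, and it had the opposite direction in 137 of the 223 cases (61.4%), against 61.0% for the other DMRs higher in control. Another DMR lay within 10 kb of 24 members (10.8%), against 14.6% over all DMRs, and in 14 of the 24 a DMR higher in MMS did. The closest was in Maml3, a Notch coactivator gene, where a member at 4.97 in control and -0.24 in MMS lay 1215 bp from a DMR at 3.05 and 4.85. In Sez6l, a neuronal membrane protein gene, the values were 3.34 and -0.24 against -0.17 and 3.94 at a distance of 1754 bp.

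In Grb2, an adaptor of receptor tyrosine kinases, a member at 4.42 in control lay 2478 bp from a DMR at -0.17 in control and 3.73 in MMS. The next were intergenic members, chr13:41970404-41971091 near Hivep1 at 4.19, 4075 bp from a DMR at -0.17 and 3.66, and chr5:133146938-133147567 near Auts2 at 4.99, 4295 bp from a DMR at -0.17 and 3.88. In 4 of these 5 pairs each group stood at or near its lowest level on 1 of the 2 sides.

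Members were spread over all autosomes. Chromosome 3 held 22, or 1.37 per 10 Mb and 8.24% of its DMRs higher in control, and chromosome 19 held 2, or 0.326 per 10 Mb and 1.44%. None lay on chromosome X, where 8 DMRs were higher in control, and none on chromosome Y, where no DMR was.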

How the data were processed

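meDIP libraries of 3 control and 3 MMS pools were analysed through the authors' deposited table. The authors mapped Ion Proton reads to mm10 and used MACS2 (version 2.1 in the submitters' processing notes) to call broad peaks over inputs. The authors then compared the groups with DiffBind and DESeq2. The paper also describes normalisation to a pooled input of each group and a subtraction with the IgG control. How these steps set the lowest value of each group is not given and was not tested. The authors' deposited values used here are log2 means of normalised reads for all libraries, for control (column named untreated) and for MMS (treated). The difference, p-value and FDR columns hold the authors' own comparison and were not used. Depth per library is not given in the table, and no test was made, since it holds no value per library.

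Members and gene lists were chosen with earlier results of these data known. The rule for named regions takes the highest control means, promoters and exons, the extremes of CpG and width, shared genes, near pairs, list genes, limit cases and opposite neighbours. Some regions that the rule names are not reported here. All positions lay within GRCm38 chromosomes. Features came from GENCODE M21 by the centre of each DMR (transcription end: 100 bp before to 1000 bp after), CpG and soft-masked bases from GRCm38.p6, and alignments from BLAST 2.17.0 (word size 40, e-value 1e-30). A tandem unit is a shift of 20 to 500 bp with at least 80% equal bases. Sequence measures were tested on simulated sequences. Python 3.11.15, pandas 2.3.3 and scipy 1.17.1 were used.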

Additional observations from a re-analysis of the deposited data

How the results depend on the processing

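No paired analysis was possible because the values used are group means and hold no library, and for the same reason no pool could be left out. Between limits of exactly the lowest MMS mean, 0.25 and 1 above it, the number of members ran from 185 to 292, and no other measure left the 95% interval of its value. The limit at DMRs of at least 300 bp left 104 members, with a median control mean of 4.21, 31.7% in protein-coding genes and 39.4% with more than 1 alignment, as its construction keeps the wide members. The median CpG per 100 bp was 1.00 over the central 300 bp. More than 1 alignment was found in 8.07% when 80% of the DMR had to align and in 13.0% at 98% identity. With members of 1 alignment, an alternative chosen after seeing the data, the median width was 194 bp, the soft-masked share 22.5% and the control mean 4.64. Intervals cover counting over regions and not the spread between libraries. The raw reads behind single values are not given in the table, and group means near the lowest value limit every difference given.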
